A study of Mus musculus with 3 samples.

Results

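Non-cycling alveolar macrophages were compared between mice that breathed 1.5 ppm ozone and mice that breathed filtered air, the control. Alveolar macrophages are the resident phagocytes of the airspaces. A cell barcode was taken as one of them if it held at least 5000 unique molecular identifiers (UMIs, each standing for 1 captured transcript molecule), at least 300 genes and a mitochondrial share of UMIs no higher than 10%, and if at least 3 of 8 macrophage markers were detected (Marco, Siglecf, Krt79, Ear2, Atp6v0d2, Bhlhe41, Chil3 and Pparg). It was taken as non-cycling if it held fewer than 3 UMIs summed over 12 genes of the late cell cycle (Mki67, Top2a, Cdk1, Ccnb1, Ccnb2, Ccna2, Birc5, Ube2c, Cenpf, Cenpa, Tpx2 and Nusap1). This left 2872 cells in the air library and 3888 in the 1.5 ppm library, 6760 of their 12576 barcodes. The same rule found 1857 cells in another library, of mice that breathed 1 ppm ozone, whose values are set beside the others. All 3 libraries held 15809 barcodes.

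All mice were C57BL/6J, labelled WT, and 12 weeks old. Exposure lasted 3 h, and airspace cells were collected 22 to 24 h after it by lavage of the right lung lobes, the left bronchus having been tied off. Cells of 3 to 4 mice a group were pooled into 1 library, and transcripts were counted from their poly(A) end (10x Genomics Chromium). With 1 library a group there is no replicate, so no test between groups was made, and every interval given here covers counting error of UMIs or cells only, not the spread between mice, exposures or library preparations.

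As background, alveolar macrophages take up and recycle surfactant, the lipid film of the air sacs, and so handle much cholesterol and fatty acid. When sterol in the endoplasmic reticulum is scarce, the transcription factor SREBP2 moves to the nucleus and switches on the enzymes of cholesterol synthesis. When sterol derivatives abound, the nuclear receptor LXR switches on genes for sterol export. Misfolded protein is met by the heat shock chaperones in the cytosol, driven by HSF1, and by the chaperones of the unfolded protein response in the endoplasmic reticulum.

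The values that chose the cells are a description and not a finding. Of barcodes that passed the UMI, gene and mitochondrial limits, 98.7% in air, 98.9% at 1 ppm and 97.7% at 1.5 ppm met the marker rule. The cells left out as cycling were 415 (12.6% of the macrophages) in air, 260 (12.3%) at 1 ppm and 1552 (28.5%) at 1.5 ppm. After each cell was thinned to 5000 UMIs these shares were 7.12%, 6.80% and 19.9%. Just inside the cycling limit, with 2 UMIs, stood 280 air cells and 470 cells at 1.5 ppm, and just outside it, with 3 UMIs, 92 and 203. The kept cells held a median of 7 of the 8 markers in air and 6 at 1.5 ppm. Summed over the 8 markers, their level was 11649.7 CPM (the gene's UMIs per 1000000 UMIs of the library's kept cells) in air, 13671 at 1 ppm and 10032 at 1.5 ppm. The marker rule itself selects for cells that hold these genes.

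The kept cells held 41190780 UMIs in air, 30661065 at 1 ppm and 52193609 at 1.5 ppm, with medians of 13441.5, 15508 and 11935.5 UMIs per cell. The median mitochondrial share of UMIs was 4.11% in air, 3.98% at 1 ppm and 2.27% at 1.5 ppm, and the 10% limit had removed 34.2%, 30.6% and 9.07% of barcodes. Of the kept barcodes, 6 sequences occurred in both libraries compared. Markers of other cell types were low but not at 0. The 8 neutrophil markers summed to 58.8 CPM in air, 57.3 at 1 ppm and 65.7 at 1.5 ppm, with Retnlg at 0 UMIs in air and at 1.5 ppm, which allows up to 0.0728 and 0.0575 CPM. The T cell list summed to 147, 146 and 133 CPM, nearly all of it Cd2, and the B cell list to 0.316, 0.359 and 0.402. Dendritic markers summed to 38.5, 14.9 and 26.2 CPM, C1q macrophage and monocyte markers to 33.2, 27.2 and 37.8, erythroid genes to 20.3, 0.261 and 34.8, and epithelial markers to 125, 76.0 and 1403. The epithelial list is the one that differs most between air and 1.5 ppm, and it is taken up with the secretory transcripts below. The part of these markers in the results was not tested. For some genes a value without the cells that carry 2 or more UMIs of them is given. In the kept cells Cd2 stood at 147 CPM in air and 132 at 1.5 ppm, and Epcam at 58.9 and 128. A filter that counts these genes leaves 364 air cells and 578 at 1.5 ppm, so it also drops many macrophages. Whether a value that shifts under it owes this to other cell types was not tested. A trimmed marker set is named where it was used.

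A gene entered the comparison if its mean over both libraries was at least 20 CPM, which 6565 genes met. The ratio is of summed CPM, and its log2 value is after adding 1 UMI to each sum. At 1.5 ppm, 341 genes (5.19%) were higher than in air by 1.5-fold or more and 124 (1.89%) lower by as much. By 2-fold or more, 51 genes (0.777%) were higher and 11 (0.168%) lower. The median log2 ratio was -0.09, with 38.1% of genes above 0 and 61.9% below, and the 5th and 95th percentiles were -0.46 and 0.59. These shares are the background against which the gene lists are read.

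The enzymes of cholesterol synthesis that entered the comparison were higher at 1.5 ppm in both parts of the pathway, most of them by 1.5-fold or more. Of the 9 mevalonate enzymes, which build the isoprenoid units, 7 entered the comparison and 6 were at least 1.5-fold higher, against 5.19% of all genes, with a median log2 ratio of 0.95. Of the 13 enzymes from squalene to cholesterol, 7 entered and 6 were at least 1.5-fold higher, with a median of 0.87. At 1 ppm the same medians against air were 0.30 and 0.31. The members outside the comparison for low level were Mvk and Acat2 of the first list and Lss, Tm7sf2, Hsd17b7, Sc5d, Dhcr7 and Lbr of the second, and their log2 ratios ran from 0.18 for Dhcr7 to 1.26 for Lss.

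The promoters of these genes and of the heat shock genes described further on were searched for the same sequence features. They are the 250 bases before the start of the gene in RefSeq on mouse build GRCm38.p6, an earlier build than the one counted on, 5′ to 3′ on the strand of the gene. The windows shown are among those with no annotated exon in them. Hmgcs1 and Mvd stand for the mevalonate enzymes, and Hspa1b and Hspb1 for the inducible chaperones. Capitals mark a sterol element (TCACNCCAC), a heat shock element (GAANNTTC) or a CCAAT box (CCAAT), searched on both strands. The windows are chr13:119690101-119690350, plus strand, for Hmgcs1, chr8:122443423-122443672, minus strand, for Mvd, chr17:34959239-34959488, minus strand, for Hspa1b and chr5:135887669-135887918, plus strand, for Hspb1.
Hmgcs1: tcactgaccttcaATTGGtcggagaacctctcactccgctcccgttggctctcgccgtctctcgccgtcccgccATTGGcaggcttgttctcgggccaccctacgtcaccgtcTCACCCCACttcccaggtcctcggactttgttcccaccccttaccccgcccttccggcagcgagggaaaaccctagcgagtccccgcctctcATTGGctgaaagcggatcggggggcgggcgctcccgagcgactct
Mvd: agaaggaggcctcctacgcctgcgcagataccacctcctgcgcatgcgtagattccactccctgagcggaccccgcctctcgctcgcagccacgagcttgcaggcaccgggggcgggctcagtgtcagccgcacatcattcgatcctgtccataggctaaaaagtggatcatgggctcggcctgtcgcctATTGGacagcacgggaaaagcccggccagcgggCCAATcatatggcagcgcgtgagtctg
Hspa1b: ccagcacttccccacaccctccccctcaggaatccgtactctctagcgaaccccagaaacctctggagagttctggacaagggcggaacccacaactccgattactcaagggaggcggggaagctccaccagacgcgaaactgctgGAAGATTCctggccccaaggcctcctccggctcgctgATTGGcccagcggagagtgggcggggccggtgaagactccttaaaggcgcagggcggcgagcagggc
Hspb1: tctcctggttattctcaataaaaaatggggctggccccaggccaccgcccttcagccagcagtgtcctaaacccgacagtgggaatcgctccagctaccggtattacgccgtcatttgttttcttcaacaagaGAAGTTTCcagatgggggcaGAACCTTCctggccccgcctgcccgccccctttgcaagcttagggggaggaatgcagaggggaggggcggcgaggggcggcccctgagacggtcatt
Hmgcs1 holds a sterol element 137 to 129 bases before the start and 3 CCAAT boxes, and Mvd holds 2 CCAAT boxes. Hspa1b holds a heat shock element 104 to 97 bases before the start and 1 CCAAT box, and Hspb1 holds 2 heat shock elements, 117 to 110 and 97 to 90 bases before it. Among all 32851 promoters of the table, 1.05% hold the sterol element, 6.69% the heat shock element and 33.8% a CCAAT box. Promoters were found for 7 of 9 mevalonate genes, of which 1 held the sterol element and 6 a CCAAT box, and for 10 of 13 squalene to cholesterol genes, of which 0 held the sterol element and 10 a CCAAT box. For 16 of 20 heat shock genes with a promoter, 7 held the heat shock element (Dnaja1, Fkbp4, Hspa1a, Hspa1b, Hspb1, Hspd1 and Hspe1). These 7 are not separate sites. The windows of Hspd1 and Hspe1 overlap on opposite strands and share 1 match, and those of Hspa1a and Hspa1b are near-identical copies. A CCAAT box was held by 7 of the 16, near the share among the genes compared. Among the genes compared that have a promoter, 39.8% held a CCAAT box, 6.01% the heat shock element and 1.30% the sterol element. The sterol element was also held by 1 of the 16 heat shock genes (Fkbp4). The heat shock element was also held by 1 of the 7 mevalonate genes (Idi1) and 1 of the 10 squalene to cholesterol genes (Tm7sf2). A match is a description of letters in the window, and a window without a match says only that these letters are not in it.

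Along the mevalonate branch, Hmgcs1, which makes HMG-CoA, stood at 80.8 CPM in air, 91.2 at 1 ppm and 156 at 1.5 ppm (1.93-fold over air, 95% interval 1.85 to 2.01). Idi1, which isomerises the isoprenoid unit, stood at 36.2, 48.4 and 109 CPM, and Fdps, which joins these units to farnesyl diphosphate, at 21.4, 37.9 and 67.4 (3.15-fold, 2.93 to 3.40). The phosphorylating enzyme Pmvk stood at 26.4, 39.6 and 64.8 CPM. For Fdps, Idi1, Pmvk and Hmgcs1 the air value was lowest and the 1.5 ppm value highest, with 1 ppm between. Ggps1, which leads isoprenoids away from sterols to protein prenylation, was the member below the 1.5-fold limit, at 41.9, 39.0 and 44.3 CPM.

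In the sterol branch, Sqle, the squalene epoxidase and a second control point of the pathway, stood at 11.6 CPM in air, 20.1 at 1 ppm and 35.2 at 1.5 ppm (3.04-fold, 2.74 to 3.36). Cyp51, which removes the first methyl group from lanosterol, stood at 32.0, 46.5 and 91.9 CPM (2.87-fold, 2.70 to 3.05). Fdft1, which commits farnesyl units to squalene, stood at 25.3, 30.5 and 50.1 CPM, and Msmo1 at 43.1, 54.8 and 78.6. All of these were graded in the order air, 1 ppm and 1.5 ppm. Without the cells that carry 2 or more UMIs of markers of other cell types (364 air cells and 578 at 1.5 ppm left), 3 of the 8 members that then passed the limit of level were at least 1.5-fold higher, with a log2 ratio of 0.56 for Msmo1 in place of 0.87. Nsdhl was below the 1.5-fold limit, at 16.9, 17.4 and 23.9 CPM.

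The genes that control SREBP did not all stand on the same side of air. Of the 12 fixed members, 11 entered, of which 4 were higher and 1 lower by 1.5-fold or more (5.19% and 1.89% of all genes were). The list's median log2 ratio was 0.08. The higher ones include 2 known targets of SREBP2. Stard4, a sterol carrier, stood at 16.4 CPM in air, 20.1 at 1 ppm and 37.5 at 1.5 ppm. Insig1, which holds SREBP back in the endoplasmic reticulum, stood at 27.5, 37.7 and 50.3. Without the cells that carry markers of other cell types, which left 364 air cells and 578 at 1.5 ppm, the log2 ratio of Insig1 was 0.29 in place of 0.87. The factors themselves differed less, with Srebf2 at 51.0, 53.8 and 70.8 CPM and Srebf1 at 37.5, 43.4 and 29.7. The lower member was Mylip, a ubiquitin ligase and LXR target, at 156, 149 and 86.8 CPM (0.558 of air, 0.537 to 0.580). Of 12 fatty acid synthesis genes 7 entered and 1 passed the 1.5-fold limit, the elongase Elovl6 at 29.0, 32.1 and 61.9 CPM.

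**Figure D1:**
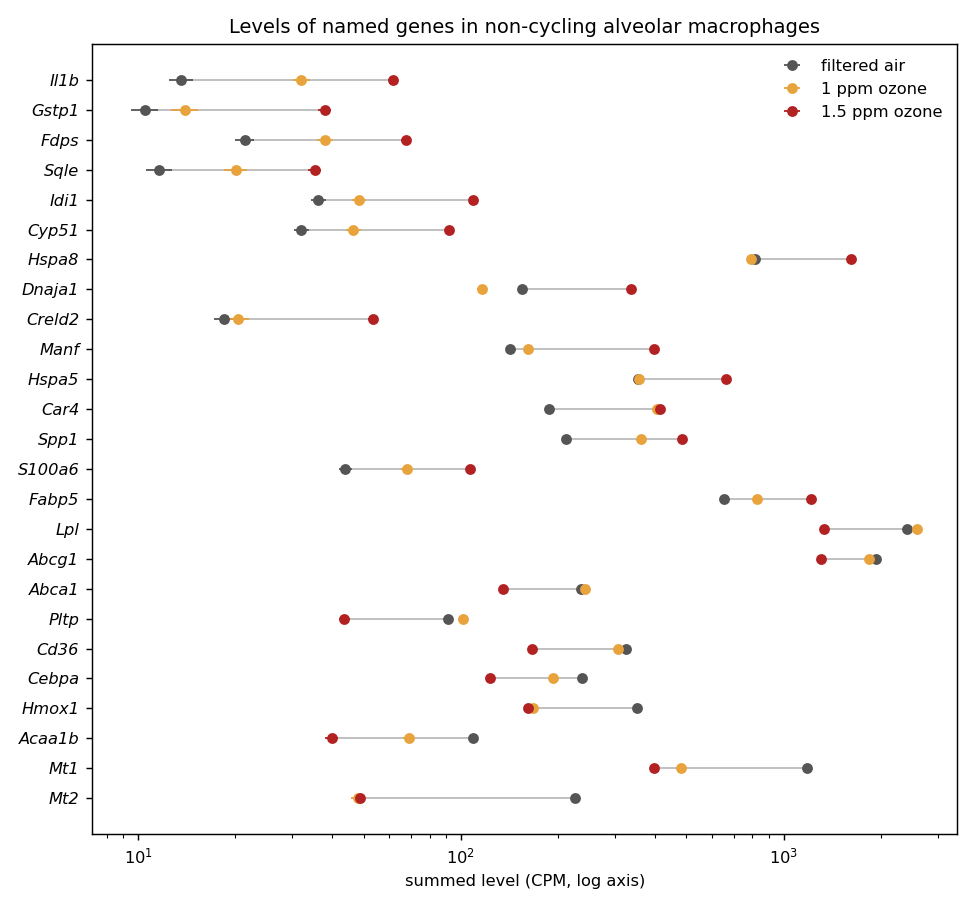
Summed level (CPM, log axis) of the genes named in the rows in non-cycling alveolar macrophages of the filtered air (grey), 1 ppm (orange) and 1.5 ppm (red) libraries, with bars for the 95% Poisson interval of the count, which is often narrower than the point, and a grey line joining air and 1.5 ppm. Fdps stands at 21.4, 37.9 and 67.4 CPM in these libraries, and Lpl at 2413, 2592 and 1334, so that it is low at 1.5 ppm alone.

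Part of the genes of sterol export stood lower at 1.5 ppm. Of 13 LXR targets and export genes 12 entered, 10 were below 0 (61.9% of all genes were) and 5 at least 1.5-fold lower, against 1.89% of all genes, with a median log2 ratio of -0.50 (-0.01 at 1 ppm). Their summed level was 3492 CPM in air, 3458 at 1 ppm and 2538 at 1.5 ppm. Pltp, the phospholipid transfer protein, stood at 91.3, 101 and 43.5 CPM (0.477 of air, 0.453 to 0.503). Abca1, the pump that loads cholesterol onto apolipoprotein, stood at 236, 243 and 135 CPM (0.572 of air, 0.555 to 0.590). Abcg1, its partner for export to lipoprotein particles, stood at 1928, 1841 and 1305 CPM, just short of the 1.5-fold limit. Apoe was the member most above 0, at 46.3, 44.8 and 60.8 CPM. With cells of 2.5 to 4% mitochondrial UMIs, or with cells of S phase also left out, 3 of the list's genes were at least 1.5-fold lower.

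Of 25 genes of fatty acid uptake, storage and oxidation 23 entered, and 15 were below 0, near the share of all genes (61.9%). At least 1.5-fold lower were 4 (1.89% of all genes were) and higher 1 (5.19%), with a median log2 ratio of -0.33. Lpl, the lipase that frees fatty acids from lipoprotein, stood at 2413 CPM in air, 2592 at 1 ppm and 1334 at 1.5 ppm (0.553 of air, 0.548 to 0.558). Cd36, a fatty acid and scavenger receptor, stood at 325, 307 and 166 CPM. Acaa1b, a thiolase of peroxisomal oxidation, stood at 109, 68.9 and 39.7 CPM (0.365 of air, 0.346 to 0.385). Lpl and Cd36 were low at 1.5 ppm alone, and Acaa1b was graded. The member that was higher was Fabp5, a fatty acid carrier, at 651, 829 and 1218 CPM. Neither the 24 lysosomal genes, with 0 past the 1.5-fold limit and a median of -0.21, nor the 14 scavenger and efferocytosis genes that entered, with Cd36 alone past it and a median of -0.22, held a further member that far from air.

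**Figure D2:**
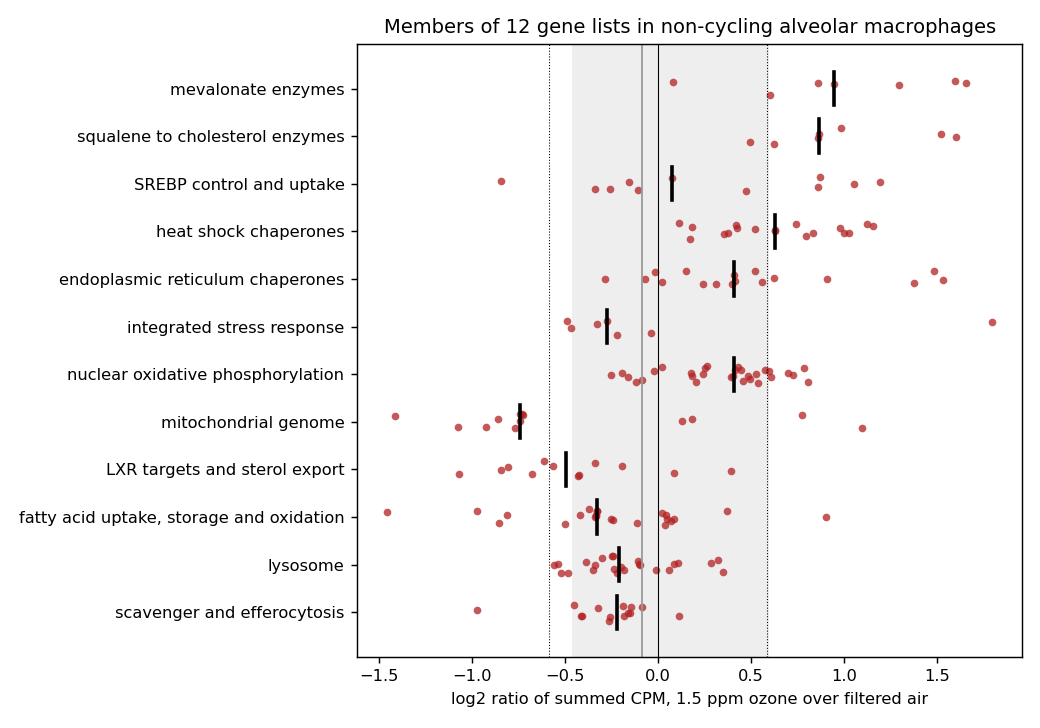
Each point is 1 gene of the list named in the row and its log2 ratio of summed CPM, 1.5 ppm ozone over filtered air, in non-cycling alveolar macrophages, spread vertically for sight alone, with a black bar at the list's median. The grey band spans the 5th to 95th percentile of the 6565 genes compared (-0.46 to 0.59), the grey line is their median, and the dotted lines mark 1.5-fold. The medians of the cholesterol synthesis lists (0.95 and 0.87) and of the heat shock list (0.63) lie right of the band, and those of the LXR (-0.50) and mitochondrial genome (-0.74) lists left of it.

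Counts of the sterol enzymes in single cells were low, which limits what their spread can show. After thinning to 5000 UMIs per cell, the median cell held 2 UMIs of the 22 enzymes in air, 2 at 1 ppm and 3 at 1.5 ppm, while the 90th percentile was 6, 8 and 13. Of the cells at 1.5 ppm, 26% (24.6 to 27.4) held more than the 90th percentile of air, against 13.4% at 1 ppm and 7.63% in air itself. The variance over the mean of the per-cell count was 3.63 in air, 4.95 at 1 ppm and 6.19 at 1.5 ppm. More than the air median of 2 was held by 55.3% of cells at 1.5 ppm and 32.7% in air. For heat shock chaperones the median was 17 UMIs in air, 15 at 1 ppm and 28 at 1.5 ppm, and 87.4% of cells at 1.5 ppm (86.4 to 88.5) held more than the air median, against 44.4% in air. More than the 90th percentile of air was held by 60.9% of cells at 1.5 ppm and 8.70% in air. For the LXR list the median was 16, 17 and 11 UMIs, and 71.5% of cells at 1.5 ppm held fewer than the air median, against 45.7% in air.

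**Figure D3:**
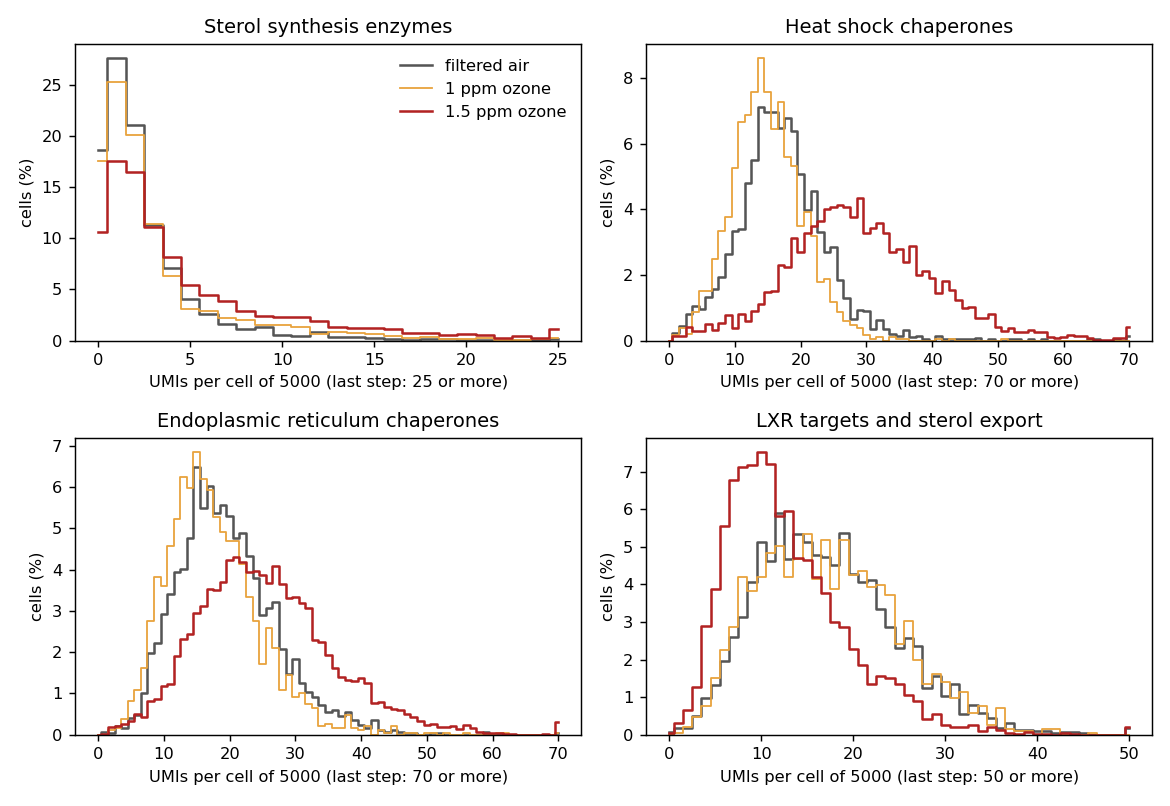
Share of cells (%) by UMIs per cell of 4 gene lists in non-cycling alveolar macrophages, each cell thinned to 5000 UMIs, in filtered air (grey), 1 ppm (orange) and 1.5 ppm (red), where the last step gathers all higher values. For the sterol enzymes, whose counts are low, the medians are 2, 2 and 3 and the 1.5 ppm curve has the longer right end. For heat shock chaperones the 1.5 ppm curve lies to the right (medians 17, 15 and 28) and for the LXR list to the left (16, 17 and 11).

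Within each library, the cells with most sterol enzyme UMIs also stood apart in genes of sterol control and export. Cells were grouped by their thinned sterol enzyme UMIs into 0 to 1, 2 to 3, 4 to 6, 7 to 12, and 13 or more. The highest group held 50 cells (1.74%) in air, 82 (4.42%) at 1 ppm and 421 (10.8%) at 1.5 ppm. From the lowest to the highest group, Insig1 and Stard4, which are not among the 22 enzymes, summed to 22.2 and 240 CPM in air, 22.0 and 222 at 1 ppm and 30.7 and 258 at 1.5 ppm. Abca1 stood at 287 and 16 CPM in air, the latter from 4 UMIs, at 321 and 2.44 at 1 ppm, from 1 UMI, and at 236 and 2.38 at 1.5 ppm, from 5 UMIs. Abcg1 stood at 2187 and 692 CPM in air and at 1779 and 688 at 1.5 ppm. For these genes the ends of the order lay farther apart within a library than the libraries did at either end. For heat shock chaperones it was the other way, at 3431 and 3940 CPM in air and at 5684 and 6051 at 1.5 ppm. Lpl was lower in the highest than in the lowest group of each library, and lower at 1.5 ppm than in air at both ends. It stood at 2370 and 1892 CPM in air, 2720 and 1678 at 1 ppm and 1595 and 855 at 1.5 ppm. The level of Car4, the carbonic anhydrase on the macrophage surface, was 142 and 388 CPM in air and 195 and 967 at 1.5 ppm.

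Across single cells of a library the sterol enzyme count and that of Insig1 and Stard4 had a Pearson correlation of 0.38 in air (2872 cells), 0.44 at 1 ppm (1857) and 0.45 at 1.5 ppm (3888). With Abca1 and Abcg1 it was -0.39, -0.45 and -0.43. With heat shock chaperones it was 0.05, 0.04 and 0.04. These are descriptions of cells that share a library and were thinned to equal depth.

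**Figure D4:**
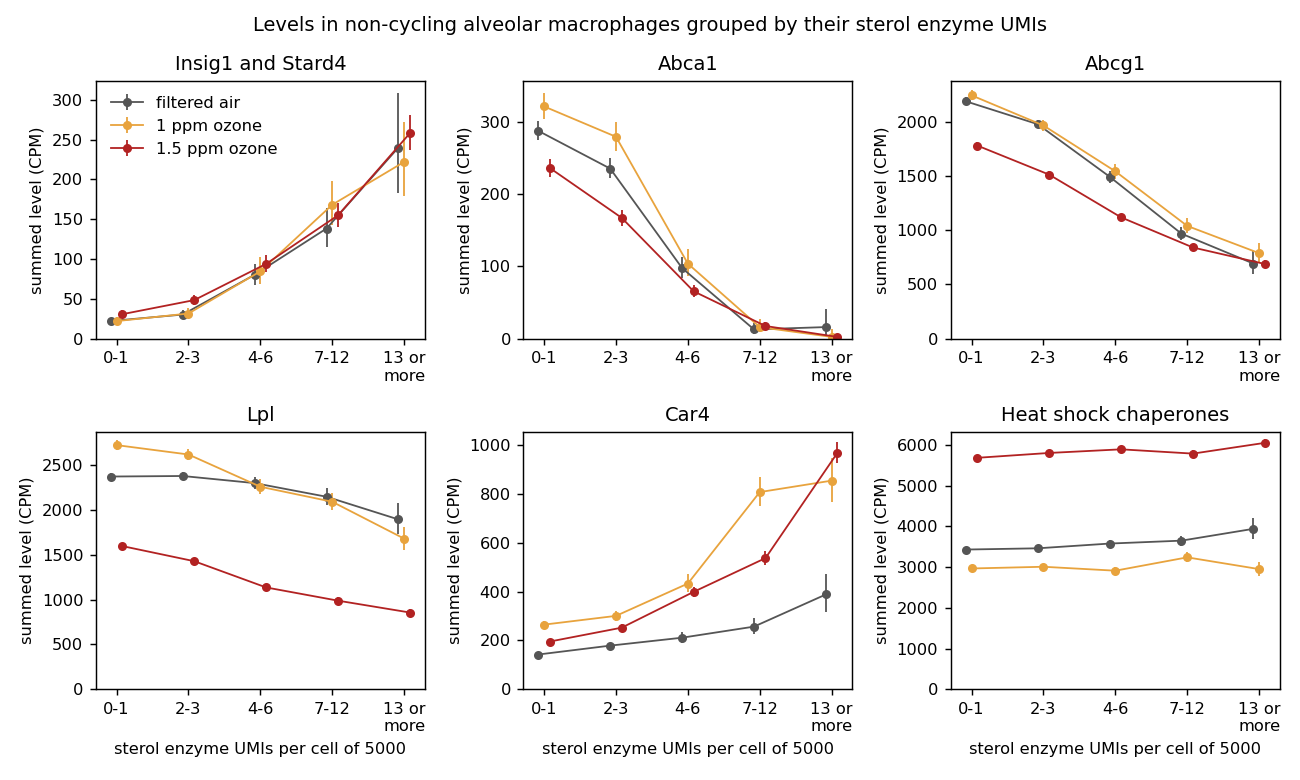
Summed level (CPM, with 95% Poisson bars) of the genes named over each panel in non-cycling alveolar macrophages grouped by their sterol enzyme UMIs after thinning to 5000 (horizontal axis), for filtered air (grey), 1 ppm (orange) and 1.5 ppm (red). Insig1 and Stard4 climb from 22.2 to 240 CPM in air and from 30.7 to 258 at 1.5 ppm, Abca1 drops toward 0 in all 3 libraries, and heat shock chaperones stay between 5684 and 6051 CPM at 1.5 ppm in every group, above air throughout.

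Many heat shock chaperones were higher at 1.5 ppm and not at 1 ppm. The list is mostly of cytosolic chaperones, but it also holds Hspd1 and Hspe1, which form the mitochondrial chaperonin, and the factor Hsf1. Of 20 members 18 entered (all but Hsf1 and Hspb1), 18 were above 0 and 10 at least 1.5-fold higher. Of all genes compared, 38.1% were above 0 and 5.19% at least 1.5-fold higher. The list's median log2 ratio was 0.63 at 1.5 ppm and -0.19 at 1 ppm. Its summed level was 3555 CPM in air, 3069 at 1 ppm and 6007 at 1.5 ppm. Hspa8, the constitutive HSP70, stood at 813, 789.7 and 1622 CPM (2.00-fold, 1.97 to 2.02). Its partner Dnaja1, an HSP40, stood at 155, 116 and 337 CPM, the nucleotide exchange factor Hsph1 at 46.1, 32.8 and 94.0, and Cacybp, which binds HSP90 clients, at 99.8, 101 and 222. Ahsa1, which activates the HSP90 ATPase, stood at 37.6, 41.2 and 74.1 CPM. The mitochondrial pair stood at 144, 141 and 240.4 CPM (Hspd1) and at 178, 188 and 308 (Hspe1). For each of these the 1.5 ppm library was the high one, and the 1 ppm library stood near air or below it.

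The classical stress-inducible members were at low level and unlike the rest. Hspa1b, the inducible HSP70, stood at 33.1 CPM in air, 5.94 at 1 ppm and 51.2 at 1.5 ppm, and Hspa1a at 19.3, 4.11 and 21.9. These genes are near-identical copies, so the split of reads between them is uncertain. The top 5% of cells held 78.6% of Hspa1b UMIs in air and 51.9% at 1.5 ppm, and 1 air cell held 327. Without the cells that carry 2 or more UMIs of markers of other cell types (364 air cells and 578 at 1.5 ppm left), the log2 ratio of Hspa1b was -0.51 in place of 0.63, that of Hsph1 was 0.48, and 6 chaperones in place of 10 were at least 1.5-fold higher, with a median of 0.48. With a trimmed marker set, which leaves out Cd2, Csf3r, Epcam and Scgb1a1 (2245 air cells and 2996 at 1.5 ppm left), the log2 ratio of Hspa1b was 0.46 and the list's median 0.57. Hspb1, the small chaperone whose promoter is shown above, was under the limit of level, with 0.437 CPM in air, 0 UMIs at 1 ppm and 4.89 CPM at 1.5 ppm. Of the 8 subunits of TRiC, the chaperonin that folds actin and tubulin, 0 passed the 1.5-fold limit, with a median log2 ratio of 0.28.

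In the endoplasmic reticulum, 17 of 17 chaperones entered, 14 were above 0 (38.1% of all genes were) and 5 at least 1.5-fold higher (5.19%). Their median log2 ratio was 0.41 at 1.5 ppm and -0.11 at 1 ppm. Hspa5, also called BiP and the main sensor partner of the unfolded protein response, stood at 354 CPM in air, 357 at 1 ppm and 665 at 1.5 ppm (1.88-fold, 1.84 to 1.92). Creld2 stood at 18.5, 20.3 and 53.5 CPM (2.89-fold, 2.67 to 3.13), Manf, a secreted stress protein, at 142, 161 and 398, and Sdf2l1, a BiP cofactor, at 62.8, 56.6 and 163. The more abundant folding enzymes differed less, with Hsp90b1 at 630.1, 556 and 836 CPM and Calr at 393, 409 and 518.

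Most transcripts compared of the arm of the stress response that runs through ATF4 did not share this. The activity of the arm itself was not measured. Of 17 genes of the integrated stress response 7 entered, 6 were below 0 (61.9% of all genes were) and 1 passed the 1.5-fold limit. Atf4 stood at 75.3, 73.4 and 62.3 CPM. Ddit3 and Asns, its targets, were below the limit of level, at 18.7, 14.6 and 15 CPM and at 3.81, 4.70 and 2.97. The gene that passed was Nupr1, a small stress-induced chromatin protein, at 25.4, 32.9 and 88.4 CPM, but the top 5% of cells held 63.5% of its UMIs at 1.5 ppm against 33.6% in air, and 1 cell held 455. In barcodes with at least 4 epithelial markers and under 3 macrophage markers Nupr1 stood at 3147 CPM at 1.5 ppm. Without the cells that carry 2 or more UMIs of markers of other cell types its log2 ratio was 0.98 in place of 1.80, and with the trimmed marker set it was 0.80.

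Transcripts of the mitochondrial genome were lower at 1.5 ppm, and nuclear genes for the same complexes were not. The limit on the mitochondrial share is part of the rule, so the former is a description. Summed over its 13 protein genes the level was 42802 CPM in air, 41082 at 1 ppm and 24804 at 1.5 ppm, with 9 genes at least 1.5-fold lower and 2 higher. mt-Cytb, of complex III, stood at 3230.0, 3129 and 1532 CPM, mt-Co3, of complex IV, at 8127, 8051 and 4289, and mt-Nd3, of complex I, at 1030.4, 887 and 387. mt-Nd6, the one protein gene read from the other strand, stood the other way, at 31.3, 27.6 and 66.8 CPM. In cells of 2.5 to 4% mitochondrial UMIs, 1 of the 13 was at least 1.5-fold lower. That band is chosen by the sum of these same genes, which brings the libraries' levels together, so the count decides nothing. Of 30 nuclear genes of oxidative phosphorylation 24 were above 0 (38.1% of all genes were) and 6 at least 1.5-fold higher (5.19%). The 6 were Ndufb8, Ndufb9, Ndufb10, Cox4i1, Cox5a and Cycs. The list's median log2 ratio was 0.41 at 1.5 ppm and 0.25 at 1 ppm.

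Short genes were higher and long genes lower, which touches the last list and the ribosomal proteins. In the 655 genes of shortest genomic span, 1 of 10 equal groups, the median log2 ratio was 0.31 at 1.5 ppm (0.20 at 1 ppm), and 143 of them were at least 1.5-fold higher. In the 655 of longest span it was -0.23 (-0.19 at 1 ppm), with 5 higher and 34 lower. Of 83 cytosolic ribosomal protein genes 80 entered, 74 were above 0 (38.1% of all genes were) and 17 at least 1.5-fold higher (5.19%). Their median was 0.40 at 1.5 ppm and 0.37 at 1 ppm. Relative to genes of like span, 3 of them passed the 1.5-fold limit and their median was 0.11, and that of the nuclear oxidative phosphorylation list was 0.23. The same step left the mevalonate median at 0.96, the squalene to cholesterol median at 0.93, the endoplasmic reticulum median at 0.43 and the LXR median at -0.42, and took the heat shock median to 0.50.

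Among inflammatory cytokines 7 of 22 entered and 1 passed the 1.5-fold limit. This was Il1b, the secreted pyrogenic cytokine interleukin-1 beta, at 13.6 CPM in air, 32.1 at 1 ppm and 61.7 at 1.5 ppm (4.55-fold, 4.16 to 4.98). After thinning it was seen in 4.49% of cells in air, 6.09% at 1 ppm and 12.5% at 1.5 ppm, and before thinning in 9.75%, 12.9% and 19.3%. Of 45 barcodes at 1.5 ppm with at least 3 T cell markers and under 3 macrophage markers, at a median of 4162 UMIs, 2.22% held an Il1b UMI. In 78 barcodes at 1.5 ppm with at least 4 neutrophil markers Il1b stood at 2256 CPM, and the neutrophil genes S100a8 and S100a9 stood in the macrophages at 9.54 and 0.194 CPM in air and at 19.4 and 6.09 at 1.5 ppm. Without the cells that carry 2 or more UMIs of markers of other cell types the log2 ratio of Il1b was 1.23 in place of 2.18. With Cd2, Csf3r, Epcam and Scgb1a1 taken out of that marker set, which leaves 2245 air cells and 2996 at 1.5 ppm, it was 2.16. Tnf and Cxcl2, other early cytokines of macrophages, were below the limit of level, at 7.65, 5.77 and 7.78 CPM and at 5.41, 1.89 and 8.07. Of 21 interferon response genes 4 entered and 0 passed 1.5-fold.

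Car4 and Fn1 were nearly as high at 1 ppm as at 1.5 ppm, while Spp1 and S100a6 were graded. Car4 stood at 187 CPM in air, 404 at 1 ppm and 413 at 1.5 ppm. Fn1, the matrix protein fibronectin, stood at 292, 519.8 and 529.8 CPM, and Spp1, the matrix protein osteopontin, at 212, 361 and 483. Of 23 matrix and repair genes 12 entered, and Fn1 and Spp1 were the 2 higher ones, while Igf1, a growth factor, was lower at 41.3, 33.7 and 24.0 CPM. With cycling cells kept its log2 ratio was -0.48 in place of -0.78, and without cells that carry markers of other cell types -0.23. The calcium-binding S100a6 stood at 43.8, 68.2 and 107 CPM, with 79.3%, 67.9% and 73.3% of its UMIs in the top 5% of cells.

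Genes of metal and oxidant handling split. The metallothioneins Mt2 and Mt1, which bind zinc and copper, stood at 226 CPM in air, 48.1 at 1 ppm and 48.6 at 1.5 ppm, and at 1181, 481 and 396. Hmox1, which breaks down haem, stood at 352, 167 and 161 CPM, and Slc7a11, the cystine importer, at 59.7, 20.4 and 33.8. Summed over all kept cells, these 4 were high in air and low in both ozone libraries. For Hmox1 and Slc7a11 this varied with cell depth. In cells of 5000 to 8000 UMIs, Slc7a11 stood at 9.79 CPM in air, 33.4 at 1 ppm and 77.0 at 1.5 ppm. Hmox1 stood there at 152, 85.8 and 183. In cells of 20000 UMIs or more, Slc7a11 stood at 86.4, 27.0 and 44.1 CPM and Hmox1 at 529, 221 and 167. Part of the level sat in few cells in each library. The top 5% of air cells held 64.2% of Mt2 UMIs, 73.9% of those of Hmox1 and 89.2% of those of Slc7a11. At 1 ppm these shares were 80.7%, 56.4% and 81.3%, and at 1.5 ppm 83.7%, 52.7% and 87.4%. Without the cells that held 3 or more UMIs of Mt1 and Mt2 (845 air cells and 2151 at 1.5 ppm left) the log2 ratio of Hmox1 was -0.39 in place of -1.12, and that of Slc7a11 was 0.38 in place of -0.82. Of 20 NRF2 targets 17 entered, 2 were at least 1.5-fold lower (Hmox1 and Slc7a11) and 1 higher. Of all genes 1.89% were lower and 5.19% higher by as much, so the higher count is near the share of all genes. The higher one was the thioredoxin Txn1, at 852, 1014 and 1457 CPM. Relative to genes of like transcript length it was under the limit (log2 ratio 0.48). Of 17 genes that remove peroxide and superoxide 16 entered, 4 were at least 1.5-fold higher (5.19% of all genes were) and 1 was lower (1.89%). The lower one was the glutathione transferase Gstm1, at 226, 228 and 137 CPM. The higher ones were Gstp1, a glutathione transferase with close copies in the genome, at 10.5, 14.0 and 37.8 CPM, Mgst3 at 110.1, 102 and 239, Prdx5 at 325, 435 and 571 (log2 ratio 0.51 relative to genes of like span), and Prdx4 (log2 ratio 0.52 without the cells that carry markers of other cell types). The iron store Fth1 stood at 13253, 16177 and 21158 CPM, and its log2 ratio of 0.67 was 0.38 relative to genes of like span.

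Other genes at least 2-fold lower were Rbfox1, an RNA splicing factor, at 70.5 CPM in air, 48.8 at 1 ppm and 23.6 at 1.5 ppm, Lepr, the leptin receptor, at 374, 228 and 175, Patj, a cell polarity scaffold, at 442, 263 and 197, and Dysf, a membrane repair protein, at 31.0, 18.7 and 15.1. All 4 were graded. Without the cells that carry markers of other cell types the log2 ratio of Dysf was -0.57, under the 1.5-fold limit. Of 15 regulators of macrophage identity 13 entered and 1 was at least 1.5-fold lower, the transcription factor Cebpa, at 238, 193 and 123 CPM, with a list median of -0.02.

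Transcripts of airway secretory cells included the 2 highest ratios of the genes compared, Scgb1a1 and Reg3g, and at 1.5 ppm they sat in a few barcodes. Scgb1a1, the club cell secretoglobin, stood at 59.5 CPM in air, 28.8 at 1 ppm and 1256 at 1.5 ppm, Reg3g, an antimicrobial lectin, at 3.47, 2.15 and 45.8, and Scgb3a1 at 12.6, 4.60 and 38.4. At 1.5 ppm the top 5% of cells held 99.3% of Scgb1a1 UMIs and 1 cell held 8637, and after thinning 8.49% of cells held a UMI against 16.1% in air. The 36 cells at 1.5 ppm with at least 3 epithelial markers (0.926% of cells) held 89.9% of the epithelial UMIs, and 39 such cells in air (1.36%) held 22.9%. Without cells that carry 2 or more UMIs of the trimmed marker set the log2 ratios of Scgb1a1, Reg3g and Scgb3a1 were -1.09, -1.73 and -3.15, and in cells with at least 6 of the 8 macrophage markers that of Scgb1a1 was 0.56. Epcam, an epithelial adhesion molecule, was spread differently. It stood at 58.9, 45.3 and 128 CPM, was seen after thinning in 22.4%, 18.5% and 39.8% of cells (unthinned 44.0%, 38.8% and 62.3%), and had 26.6% of its UMIs in the top 5% of cells at 1.5 ppm. Among the 45 T cell barcodes at 1.5 ppm 4.44% held an Epcam UMI.

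The non-cycling cells were last set beside the cycling macrophages of the same libraries, 415 in air and 1552 at 1.5 ppm, which share their pools. The sterol enzymes differed more between air and 1.5 ppm in the non-cycling cells. The log2 ratio was 1.66 against 0.62 in cycling cells for Fdps, 1.60 against 0.63 for Sqle and 1.60 against 0.65 for Idi1, which with Hspa1b (0.63 against -0.24) were among the 5 genes whose ratio stood most above that of cycling cells. The list medians were 0.95 against 0.55 for mevalonate enzymes and 0.87 against 0.30 for squalene to cholesterol enzymes, while heat shock chaperones had 0.63 against 0.64 and the LXR list -0.50 against -0.54. The fatty acid carrier Fabp4 stood the other way, at 0.37 against 1.18, as did Igf1, at -0.78 against -0.02.

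For sterol enzymes a step between non-cycling and cycling cells was seen in air and not at 1.5 ppm. Summed over the 22 enzymes, air cells with 0, 1 and 2 UMIs of the cycling genes stood at 502, 509 and 529 CPM, and air cells with 3 to 5, 6 to 10 and over 10 at 759, 751 and 594. In the 1.5 ppm library the same groups stood at 1003, 1009, 1047, 945, 963 and 849 CPM. At 1 ppm they lay between 595 and 641 CPM. The LXR list was lowest in the cells with over 10 cycling UMIs in each library, from 0 to over 10 going from 3547 to 2686 CPM in air and from 2564 to 1929.7 at 1.5 ppm. Median depth differed too, at 13441.5 UMIs for non-cycling and 19568 for cycling air cells and at 11935.5 and 21677 at 1.5 ppm, and its part in these values was not tested.

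**Figure D5:**
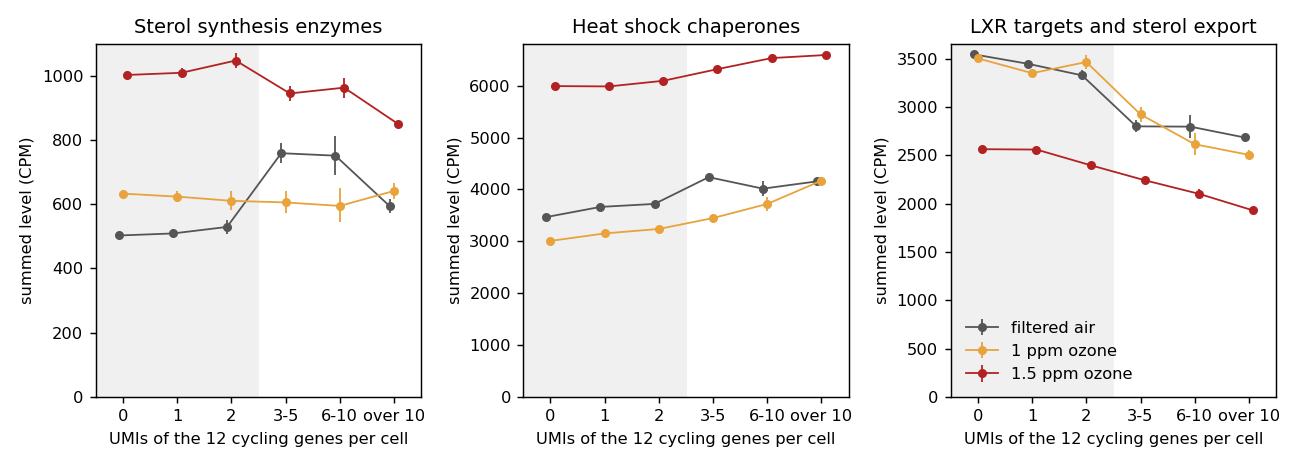
Summed level (CPM, with 95% Poisson bars) of 3 gene lists in alveolar macrophages grouped by UMIs of the 12 cycling genes (horizontal axis), for filtered air (grey), 1 ppm (orange) and 1.5 ppm (red); the shaded groups of 0 to 2 UMIs are the non-cycling cells. Sterol enzymes step from 529 to 759 CPM at the limit in air and lie between 849 and 1047 at 1.5 ppm in all groups, and heat shock chaperones at 1.5 ppm lie above the other libraries in every group.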

How the data were processed

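The 3 libraries are 10x Genomics 3' counts of pooled lavage cells, 1 pool of 3 to 4 mice a group, grouped by the treatment in the labels. Whole-number UMI counts per gene and barcode were deposited by the authors, and per the file headers they come from Cell Ranger 8.0.0, against the mouse build GRCm39, as the submitters' processing notes name it. The use of intronic reads, which bears on long genes, is not stated in what was read here. There were no columns of other samples.

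From these counts the cells were chosen by the rule in the text, and UMIs were summed over the cells of a library and divided by their total (CPM). A gene was compared if its mean over both libraries was at least 20 CPM, and was called at 1.5-fold or 2-fold. Levels and ratios have exact Poisson and conditional 95% intervals, and shares of cells Clopper-Pearson ones. All cover counting error only, since UMIs and cells of 1 pool are not independent samples of a treatment. A count of 0 allows 3 counts of the total. Where cells are compared one by one, each was thinned to 5000 UMIs, which leaves out no kept cell. No doublet caller was run, so doublets remain, and values without cells that carry markers of other cell types are given instead. No batch is named in the labels, and batch, day and treatment cannot be told apart.

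The cells and the 38 gene lists were chosen with earlier results of these data known, so no list's direction is independent evidence. Genes are named as the 12 highest and 12 lowest ratios (leaving out mitochondrial, ribosomal protein, sex-linked, haemoglobin, antigen receptor and predicted genes and the 20 genes of the rule), up to 4 members of each list, and the 5 each way that differ most from cycling cells. Some genes that this rule names are not reported here. Other members named for their role, such as Abcg1, Atf4, Tnf and Epcam, and the promoters shown were chosen after their values were seen. Gene span and transcript length are of an annotation of GRCm38 (GENCODE M21), matched by gene identifier for 99.7% of the 6565 genes, and promoters are RefSeq's on GRCm38.p6. The ratio step was tested on simulated counts with known folds. Alternatives were other limits on UMIs, mitochondrial share, markers and cycling genes, another scaling (TMM, edgeR 4.0.16 in R 4.3.3), another limit of level, and centring on genes of like length. The work used numpy 2.4.6, pandas 2.3.3, scipy 1.17.1 and matplotlib 3.10.9 under Python 3.11.15.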

Additional observations from a re-analysis of the deposited data

How the results depend on the processing

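No paired analysis was possible because each group is 1 library. Each of 25 alternatives changed 1 choice. Among the 91 named genes past 1.5-fold, 2265 of 2275 values kept their direction, and 87, in 37 genes, lay under 1.5-fold. TMM scaling moved all log2 ratios by 0.01.

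The counts of genes moved by over 1.5 times with the limit of level. At 5 CPM there were 115 genes at least 2-fold higher, 30 lower, 550 at least 1.5-fold higher and 205 lower. At 50 CPM these were 27, 9, 213 and 81, with 2 enzymes in each cholesterol list past 1.5-fold. With no limit but 1 UMI they were 2700, 1636, 5809 and 2619, with 10 squalene to cholesterol enzymes. With cycling cells kept, 87 genes were 2-fold higher and 211 at least 1.5-fold lower. Centred on the median of all genes, 76 were at least 1.5-fold lower. Relative to genes of like span, and also of like transcript length, 20 were 2-fold lower, and 3 and 7 ribosomal protein genes were 1.5-fold higher. The higher share of all 2-fold calls was 82.3%, against 67.2% with span centring, 70.1% with transcript length and 62.3% with no limit, and of 1.5-fold calls 73.3%, against 86.6% with median centring.

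At a mitochondrial share of at most 5%, 4 mitochondrial genes were 1.5-fold lower. In cells of 2.5 to 4% these were 1, with 3 LXR genes lower and 11 ribosomal protein genes higher. Both limits act on the sum of the mitochondrial genes, so the counts of mitochondrial genes under them decide nothing. Leaving out cells of S phase gave 3 LXR genes. Leaving out cells with 2 or more UMIs over all markers of other cell types gave 3 squalene to cholesterol enzymes and 6 heat shock chaperones, and reversed Scgb1a1 (-0.68), Reg3g (-1.69), Scgb3a1 (-3.15) and Hspa1b (-0.51). Scgb1a1 is itself in that marker set, so the filter takes out the cells rich in it and its own value there decides nothing. With the trimmed marker set, an alternative chosen after seeing the data, Scgb1a1 was at -1.09, Reg3g at -1.73 and Scgb3a1 at -3.15. Cells with 0 cycling UMIs gave -0.82 for Reg3g and -0.90 for Scgb3a1. Without cells of 3 or more UMIs of Mt1 and Mt2, also chosen after seeing the data (as was a band of middle cell depth), Slc7a11 was at 0.38. Among list medians of at least 0.1 in size on the log2 scale, sign changed for tubulin and actin (-0.076, span), S100 (-0.11, transcript length) and S phase (-0.050, 50 CPM). The cause of these changes was not tested.

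With 1 pool a group the spread between mice is unknown, and no difference here has a replicate check. Mitochondrial share, depth and the share of cycling cells all differed between the libraries. Long and short genes differed in opposite directions.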

Other observations

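Further groups of genes in the non-cycling macrophages had members past 1.5-fold without a list-wide difference of that size. Of all genes compared, 38.1% were above 0 and 5.19% at least 1.5-fold higher. Of the proteasome's 31 genes 25 were above 0 and 4 at least 1.5-fold higher (Psma4, Psma5, Psma7 and Psmd12), with a median log2 ratio of 0.22 at 1.5 ppm and 0.11 at 1 ppm. Of 20 ribosome biogenesis genes compared 19 were above 0, with a median of 0.32, and 1 was at least 1.5-fold higher, near the share of all genes. Of 15 translation initiation genes 12 were above 0 and 2 at least 1.5-fold higher, the initiation factor Eif1 and Eif4ebp1, which restrains cap-dependent translation. Of 12 glycolysis genes compared 0 passed 1.5-fold, with a median of -0.01.

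Cells kept as non-cycling still held some genes of the cell cycle. Of 10 other mitosis genes compared 3 were at least 1.5-fold higher at 1.5 ppm, namely Stmn1 and Cks1b, which act in mitosis, and the histone variant H2az1, which other cells use too. In S phase genes 7 were compared and 1 was at least 1.5-fold higher. Of all genes compared, 5.19% were higher by as much.

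In air, cells with many sterol enzyme UMIs also had much Mt1 and Mt2, from 811 CPM in cells with 0 to 1 such UMIs to 5056 in those with 13 or more. At 1.5 ppm the same groups stood at 418 and 373 CPM. Across cells the Pearson correlation of the sterol enzyme and metallothionein counts was 0.29 in air, 0.04 at 1 ppm and -0.02 at 1.5 ppm, a description of cells that share a library.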
